A study of Mus musculus with 6 samples.

Results

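The integrin and laminin genes are the 37 genes of the deposited count table whose symbol is that of an integrin alpha chain (18 genes), an integrin beta chain (8 genes) or a laminin alpha, beta or gamma chain (11 genes), out of 21898 genes. The rule uses the symbol alone. Expression was measured by RNA sequencing of total RNA from wild-type mouse fetal ovaries that were isolated at 14.5 days post coitum and kept for 3 days in serum-free DMEM/F12 medium. The 3 NAPQI libraries came from ovaries cultured with 15 µM NAPQI, the reactive quinone imine that forms from acetaminophen, and the 3 control libraries from ovaries cultured with an equal volume of ethyl acetate, the solvent. The labels do not say whether the libraries of a group came from separate animals or cultures, so a p-value here reflects differences among these 6 libraries, and these can be technical.

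Integrins are receptors of the cell surface made of an alpha and a beta chain. The alpha chain sets much of what is bound, and the beta chain links the receptor to the actin cytoskeleton through talin and kindlin. Laminins are secreted trimers of an alpha, a beta and a gamma chain that form the sheet on which a basement membrane is built, and they are bound by the integrins that hold the Itga3, Itga6 or Itga7 chain. In the fetal ovary basement membranes lie around the ovigerous cords, which hold germ cells and pregranulosa cells, and around vessels.

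Depth was 13879347 to 17258609 counts per library, of which the 37 genes took 0.251% to 0.311%. On the first principal component control replicate 3 was the most distant library (-35.7 against -14.9 to 26.4), which held 33.5% of the variance. Germ cell markers summed to 1278 to 1404 counts per 1e+06 counted reads (CPM, on library sizes scaled by TMM) in the controls and to 1253 to 1514 CPM with NAPQI, and pregranulosa markers to 1749 to 2227 and 1725 to 1987 CPM, so markers of both cell types that define the fetal ovary were present in every library. Surface epithelium markers varied most within the controls, at 316, 681 and 384 CPM in replicates 1, 2 and 3, with 339 to 513 CPM in the NAPQI libraries. In RNA from whole ovaries, fewer cells of a type and less RNA per cell cannot be told apart.

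Promoter sequence was matched by symbol to RefSeq (build GRCm38.p6) for 23 of the 37 genes, which gave 26 promoters of 300 bases. The 3 shown are those of Itgb1, the most abundant beta chain, of Lamb1, the most abundant laminin chain, and of Itgb8, a rare beta chain described with its values further on. They run from 5′ to 3′ on the strand of the gene, and capitals mark matches, on either strand, to 5 motifs that are spelled out after them.
Itgb1: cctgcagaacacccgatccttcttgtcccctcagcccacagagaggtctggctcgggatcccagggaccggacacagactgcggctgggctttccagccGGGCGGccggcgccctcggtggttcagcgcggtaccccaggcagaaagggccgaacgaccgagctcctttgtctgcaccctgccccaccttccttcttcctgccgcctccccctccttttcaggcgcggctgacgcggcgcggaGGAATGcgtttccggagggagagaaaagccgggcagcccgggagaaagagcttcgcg
Lamb1: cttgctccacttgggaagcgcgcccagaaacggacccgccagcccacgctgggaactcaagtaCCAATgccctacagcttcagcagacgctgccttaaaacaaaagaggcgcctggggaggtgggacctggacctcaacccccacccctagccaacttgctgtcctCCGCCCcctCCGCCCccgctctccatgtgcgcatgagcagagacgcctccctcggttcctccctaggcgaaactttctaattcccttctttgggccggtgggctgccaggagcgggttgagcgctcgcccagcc
Itgb8: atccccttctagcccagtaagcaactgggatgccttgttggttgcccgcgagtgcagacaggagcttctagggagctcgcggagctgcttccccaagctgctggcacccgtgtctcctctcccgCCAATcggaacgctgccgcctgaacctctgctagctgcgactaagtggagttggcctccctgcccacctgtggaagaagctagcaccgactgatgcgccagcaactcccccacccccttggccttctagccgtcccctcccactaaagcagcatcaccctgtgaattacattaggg
In GRCm38.p6 these are chr8:128685404-128685703 on the plus strand for Itgb1, chr12:31265043-31265342 on the plus strand for Lamb1 and chr12:119238227-119238526 on the minus strand for Itgb8. GC boxes were found in the promoters of Itgb1 (1) and Lamb1 (2) and a CCAAT box in those of Lamb1 and Itgb8, and the Itgb1 promoter also held 1 TEAD motif. Of the 26 promoters, 12 held the GC box, spelled GGGCGG, which 35.7% of all 32851 promoters in the table hold. The CCAAT box is spelled as its name says, and 4 of 26 held it, as did 37.4% of all promoters. The motif of TEAD factors, GGAATG, was in 3 of 26 and in 14.7% of all promoters. The motif of the AP-1 factors, TGANTCA, was in 3 of 26 and in 7.81% of all. The TATA box, searched as TATAAA, was in 0 of 26 and in 13.6% of all. The AP-1 motif was in promoters of Itga3, Itga9 and Itgax. Matches to different motifs overlapped in 0 of the 26 promoters.

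Levels were compared between genes per length, as fragments per kilobase and per 1e+06 reads (FPKM, as deposited), and they differed widely between chains. The most abundant chain of all was Itgb1, the beta chain shared by most integrins that bind laminin, collagen and fibronectin, at 107 ± 1.36 FPKM in controls and 114 ± 13.2 FPKM with NAPQI (mean ± SD, n = 3, as in all such values here). Itga6, a laminin-binding alpha chain, stood at 68.4 ± 14.3 and 81.0 ± 3.66 FPKM. It was followed by Itgb5, a partner of Itgav in vitronectin binding, at 48.3 ± 5.36 and 46.8 ± 7.59 FPKM. Among laminins the highest were Lamb1 at 35.1 ± 6.06 and 31.9 ± 3.74 FPKM, Lamb2 at 32.7 ± 7.51 and 27.1 ± 3.24 FPKM and Lamc1 at 25.6 ± 3.51 and 28.8 ± 0.858 FPKM, whose ranges over libraries overlapped. Lama1, the alpha chain of early embryonic basement membranes, stood at 20.4 ± 3.05 and 16.4 ± 1.38 FPKM.

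At the other end were chains of leukocyte integrins and of stratified epithelia. Itgb6, an epithelial beta chain, had 0 to 4 counts per library, and Itgad, a leukocyte alpha chain, had 0 to 5. The libraries with a count of 0 were control replicate 3 for Itgb6, where 0 counts allow up to 0.216 CPM, and control replicate 2 for Itgad, where they allow up to 0.174 CPM; such limits cover counting error only. These 2 genes, Itgam and Itgb7 had too few counts to be tested. The other 33 genes were tested, including all 11 laminin chains.

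**Figure D1:**
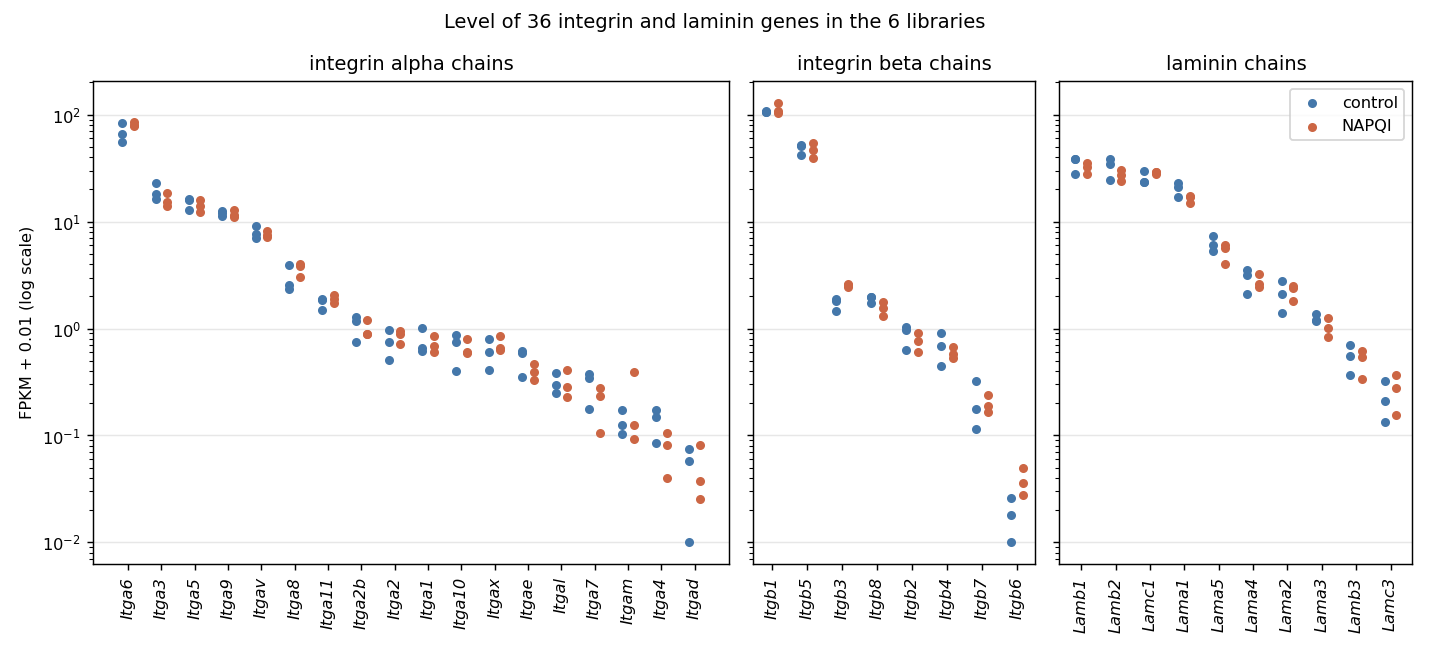
Deposited FPKM plus 0.01, on a log axis, of 36 of the 37 genes in the 3 control libraries (blue) and the 3 NAPQI libraries (orange), ordered by mean level within integrin alpha, integrin beta and laminin chains. Itgb1, Itga6 and Itgb5 lead the integrins, Lamb1, Lamb2, Lamc1 and Lama1 lead the laminins, and for nearly every gene the points of the groups lie in the same range.

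Each class was led by few chains. Itga6 made up 51.3 ± 4.94% of the summed FPKM of the integrin alpha chains in controls and 57.5 ± 2.63% with NAPQI, ahead of Itga3, another laminin-binding chain, at 14.8 ± 4.29% and 11.3 ± 1.43%. Itga5, the fibronectin-binding chain, made up 11.4 ± 1.05% and 9.96 ± 0.813%. Itga9, which binds tenascin C among others, and Itgav, the chain of the vitronectin receptors, followed. The collagen-binding chains Itga1, Itga2, Itga10 and Itga11 were each between 0.328% and 1.53% in every library.

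Among beta chains, Itgb1 made up 66.6 ± 2.16% of the class in controls and 68.5 ± 1.41% with NAPQI, and Itgb5 30.1 ± 2.07% and 28.1 ± 1.41%. Itgb3, the beta chain of the platelet fibrinogen receptor and of a vitronectin receptor, made up 1.07 ± 0.153% and 1.54 ± 0.135%. Among laminin alpha chains Lama1 made up 61.9 ± 3.19% and 59.5 ± 3.57%, and Lama5, the alpha chain of most mature epithelial basement membranes, 19.2 ± 5.21% and 18.9 ± 3.99%. Lama4 (a chain of vessel walls), Lama2 (known from muscle) and Lama3 (known from skin) made up the rest. Lamb1 and Lamb2 shared the beta class nearly evenly, at 51.6 ± 2.01% and 47.6 ± 1.90% in controls and at 53.7 ± 0.528% and 45.5 ± 0.301% with NAPQI. Lamc1 made up 94.9 ± 2.02% and 96.0 ± 0.598% of the gamma class.

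Of the 37 shares, those of Lamb1, Lamb2, Itgb3 and Itgb6 did not overlap between the groups. Each of these 4 had p = 0.1 in a two-sided exact permutation test, the smallest p that 3 libraries against 3 allow, and 0.653 after Benjamini-Hochberg adjustment over 37 shares. This test cannot pass a threshold of 0.05 with 3 libraries against 3, so it gives no call on whether the make-up of a class changed. With no difference between the groups, each share would have that same probability of 0.1 of not overlapping. The 4 are also not separate results. Lamb3 held 0.549% to 1.01% of the beta class, so the shares of Lamb1 and Lamb2 nearly mirror each other. Itgb6 rests on 0 to 4 counts per library.

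**Figure D2:**
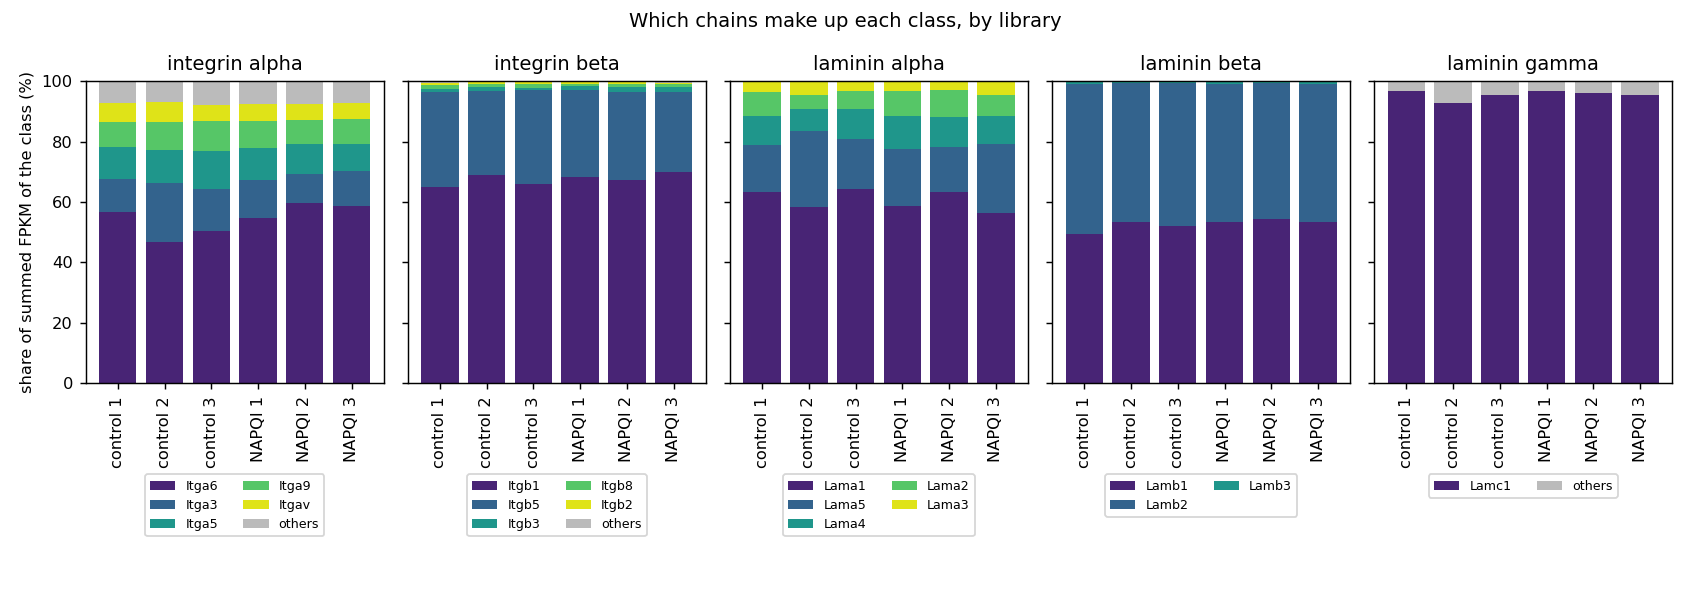
Share of each chain in the summed FPKM of its class (in percent) in each of the 6 libraries, for up to 5 chains with the highest mean share (for laminin gamma, Lamc1 alone) and, in grey, all others. Itga6, Itgb1, Lama1 and Lamc1 are the largest share of their class in every library, and control replicate 2 has the lowest Itga6 share, 46.9%, and the highest Lama5 share, 25.2%.

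No integrin or laminin gene passed the test between NAPQI and control. By the quasi-likelihood test of edgeR, 0 of 33 had an adjusted p under 0.05 (over all 14736 genes tested, 0.0814% were called), and 0 were called by DESeq2, limma-voom or the exact test of edgeR. An unadjusted p under 0.05 was seen for 3 of 33 (9.09%), Itgb3, Lama1 and Itga3, against 9.24% of all genes tested. In CPM, NAPQI and control libraries were fully apart for 2 of 33 (6.06%), Itgb3 and Itgb8, against 14.4% of all genes tested. In the authors' deposited table, too, 0 of the 37 had an adjusted p under 0.05, and the lowest was 0.652, for Itgb3.

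Most log2 fold changes were small and below 0. Of the 33, 23 (69.7%) were below 0, against 52.6% of all genes tested, and 30 had an absolute log2 fold change under 0.5. In log2 CPM against the control mean, the median of the 33 was 0.076, -0.20 and 0.093 in control replicates 1, 2 and 3. In NAPQI replicates 1, 2 and 3 it was 0.066, -0.12 and -0.16, so the groups overlapped and the lowest library was a control. The median log2 difference was -0.078 for the 16 tested alpha chains, -0.15 for the 6 beta chains and -0.17 for the 11 laminin chains, against -0.011 for all genes tested. The medians of the 3 classes in single libraries had a within-group SD of 0.138, 0.152 and 0.179. This is the spread of single libraries, not the error of a difference between groups of 3, and the medians were not tested. For 11 genes the 95% interval of the fit lay within a 1.5-fold change in either direction. They were Itga5, Itga6, Itga9, Itga11 and Itgav, the beta chains Itgb1 and Itgb5, and the laminin chains Lama2, Lama4, Lamb1 and Lamc1. For the other 22 a 1.5-fold difference lay inside the interval in at least 1 direction.

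**Figure D3:**
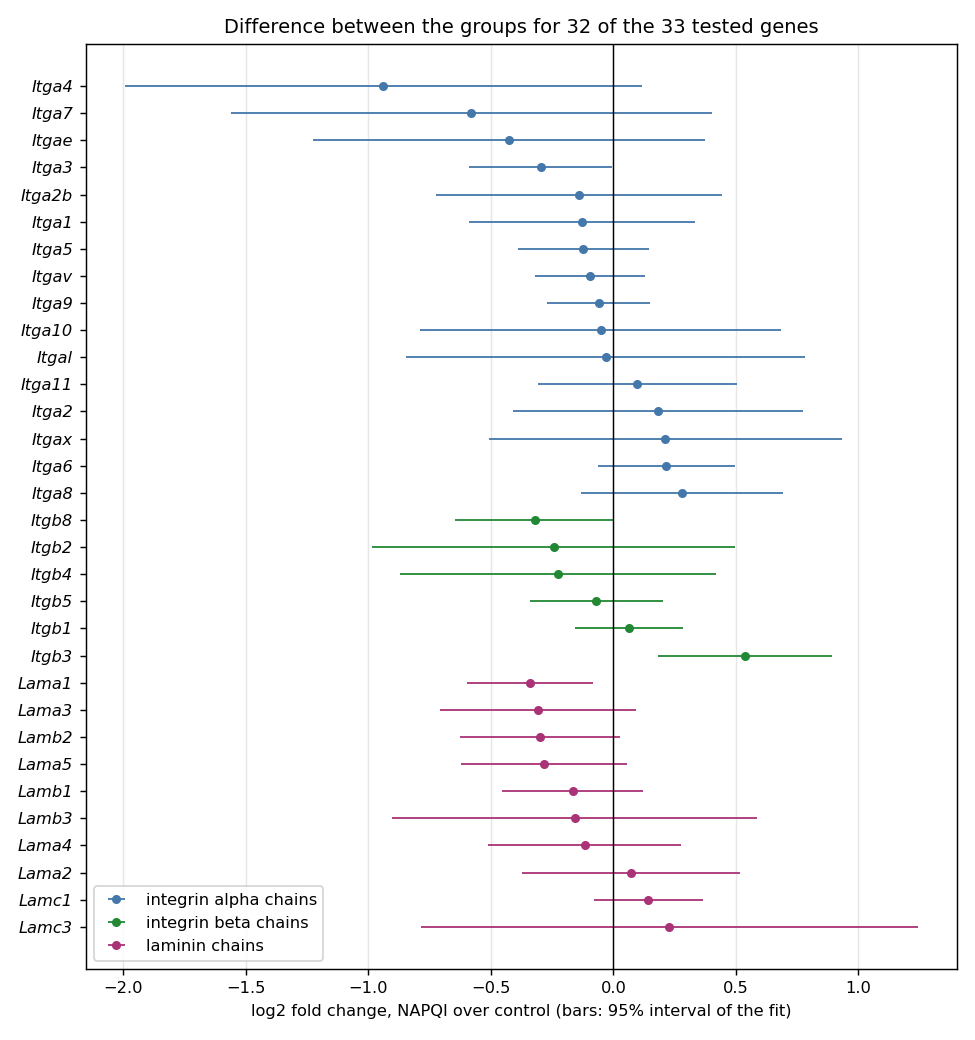
Log2 fold change of NAPQI over control for 32 of the 33 tested genes (points) with the 95% interval of the edgeR fit (bars), grouped as alpha, beta and laminin chains. The intervals of Itgb3, Lama1 and Itga3 leave out 0 before adjustment, and the widest intervals belong to genes of few counts such as Itga4 and Itga7.

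Itgb3 had the smallest p of the 33 tested genes. It stood at 11.1, 10.7 and 8.79 CPM in control replicates 1, 2 and 3 and at 15.4, 14.8 and 14.2 CPM in NAPQI replicates 1, 2 and 3. Each NAPQI library was above each control, by a log2 difference of 0.54 ± 0.16 (SE), with an adjusted p by edgeR of 0.357. The alpha chains it joins did not pass the test either. Itgav had a log2 difference of -0.097 ± 0.10 (edgeR: adjusted p of 0.794), and Itga2b, the platelet chain, one of -0.14 ± 0.27 (edgeR: adjusted p of 0.898). Markers of megakaryocytes and platelets summed to 7.91 to 10.5 CPM in controls and 6.63 to 12.0 CPM with NAPQI, endothelial markers to 169 to 245 and 187 to 230 CPM, and markers of smooth muscle and pericytes to 273 to 305 and 289 to 345 CPM. The part of these cells in the Itgb3 level was not tested. Itgb3 (ENSMUSG00000020689) spans 104498826 to 104561302 of chromosome 11 (plus strand) in GRCm39, the build of all gene positions here.

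Itgb8, a partner of Itgav that binds latent TGF-beta, stood at 21.8, 21.7 and 19.7 CPM in control replicates 1, 2 and 3 and at 16.9, 19.4 and 14.2 CPM in NAPQI replicates 1, 2 and 3. All NAPQI libraries were lower in CPM, with NAPQI replicate 2 just below control replicate 3. In the deposited FPKM, which scale to library size alone, these libraries changed places (1.77 and 1.73 FPKM) and the groups overlapped. The log2 difference was -0.32 ± 0.15, with an adjusted p by edgeR of 0.542, and it was -0.21 without NAPQI replicate 3. Itgb8 (ENSMUSG00000025321) spans 119121757 to 119202537 of chromosome 12 (minus strand). The untested Itgb6 had 1, 2 and 0 counts in control replicates 1, 2 and 3 and 3, 2 and 4 in the NAPQI libraries. Control replicate 2 and NAPQI replicate 2 thus had the same count, and the groups were kept apart only by the scaling of the libraries.

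The beta chains that carry most of the signal lay together in both groups. Itgb1 stood at 441, 432 and 448 CPM in control replicates 1, 2 and 3 and at 523, 440 and 417 CPM in NAPQI replicates 1, 2 and 3. The controls lay within the range of the NAPQI libraries, and the log2 difference was 0.065 ± 0.10 (95% interval -0.16 to 0.28, edgeR: adjusted p of 0.867). Itgb5 stood at 185, 151 and 184 CPM in the controls and at 192, 165 and 137 CPM with NAPQI, with overlapping groups and a log2 difference of -0.070 ± 0.13 (95% interval -0.34 to 0.20, edgeR: adjusted p of 0.886). Itgb1 (ENSMUSG00000025809) spans 129412135 to 129459681 of chromosome 8 (plus strand), and Itgb5 (ENSMUSG00000022817) spans 33650035 to 33769708 of chromosome 16 (plus strand).

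Of the laminin-binding alpha chains, Itga6 was higher in mean with NAPQI and Itga3 lower, and neither passed. Itga7, on 12 to 47 counts per library, was lower in mean too, at a log2 difference of -0.58 ± 0.45 (edgeR: adjusted p of 0.699). Itga6 stood at 768, 513 and 614 CPM in control replicates 1, 2 and 3 and at 729, 770 and 703 CPM in NAPQI replicates 1, 2 and 3. Control replicate 1 lay among the NAPQI libraries and the other controls below them, and the log2 difference was 0.22 ± 0.13 (95% interval -0.063 to 0.50, edgeR: adjusted p of 0.618). It was 0.39 without control replicate 1 and 0.093 without control replicate 2. Itga3 stood at 93.0, 133 and 107 CPM in the controls and at 105, 79.1 and 86.7 CPM with NAPQI. Control replicate 2 was the highest and control replicate 1 was below NAPQI replicate 1, and the log2 difference was -0.30 ± 0.14 (95% interval -0.59 to -0.0045, adjusted p by edgeR of 0.529). Without control replicate 2 the log2 fold change of Itga3 was -0.14 (edgeR: adjusted p of 0.629). Itga3 (ENSMUSG00000001507) spans 94935300 to 94967627 of chromosome 11 (minus strand), and Itga6 (ENSMUSG00000027111) spans 71575960 to 71688760 of chromosome 2 (plus strand).

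Control replicate 2, with the highest sum of surface epithelium markers, also had the highest level of Lama5, which was picked here after its values were seen. Lama5 stood at 60.0, 84.6 and 70.3 CPM in control replicates 1, 2 and 3 and at 64.4, 44.8 and 67.5 CPM with NAPQI. The groups overlapped, and the log2 difference was -0.28 ± 0.16 (edgeR: adjusted p of 0.589). The same library had the lowest level of Itga6, Lamb1, Lamb2, Lama2 and Lama4 among the controls. The part of surface epithelium in these values was not tested.

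Itga5, the alpha chain with the third highest mean FPKM, stood at 78.5, 63.6 and 82.8 CPM in control replicates 1, 2 and 3 and at 78.0, 68.8 and 59.7 CPM in NAPQI replicates 1, 2 and 3, with a log2 difference of -0.12 ± 0.12 (95% interval -0.39 to 0.15, edgeR: adjusted p of 0.784). The groups overlapped, and with a library left out the difference ran from -0.22 (without control replicate 2) and -0.21 (without NAPQI replicate 1) to -0.079, -0.045 and -0.025 (without control replicate 1, control replicate 3 and NAPQI replicate 3). The collagen-binding chains Itga1, Itga2, Itga10 and Itga11 had log2 differences of -0.13 to 0.18. Itga8, which binds nephronectin, had 0.28 ± 0.19, the highest among alpha chains. Itga4 had the lowest, -0.94 ± 0.49 (edgeR: adjusted p of 0.564), on 6 to 39 counts per library.

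Chains known from leukocytes were rare throughout. Itgb2, their common beta chain, stood at 3.16, 1.92 and 3.03 CPM in control replicates 1, 2 and 3 and at 2.30, 2.72 and 1.80 CPM in NAPQI replicates 1, 2 and 3. Its log2 difference was -0.24 ± 0.34 (edgeR: adjusted p of 0.849), and the groups overlapped. The alpha chains Itgal and Itgax, its partners, had log2 differences of -0.032 ± 0.38 and 0.21 ± 0.33 (edgeR: adjusted p of 0.987 and 0.868), and Itgam had 6 to 31 counts per library. Itgae and Itga4, which leukocytes carry as well, were at -0.43 ± 0.37 and -0.94 ± 0.49 (edgeR: adjusted p of 0.733 and 0.564). Leukocyte markers summed to 84.9 to 120 CPM in controls and 74.5 to 88.1 CPM with NAPQI. The median of their 10 log2 differences was -0.32, with 9 of 10 below 0, 0 called and 2 lower at an unadjusted p under 0.05, where 5.03% of all genes tested are. Their part in the levels of the leukocyte chains was not tested.

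**Figure D4:**
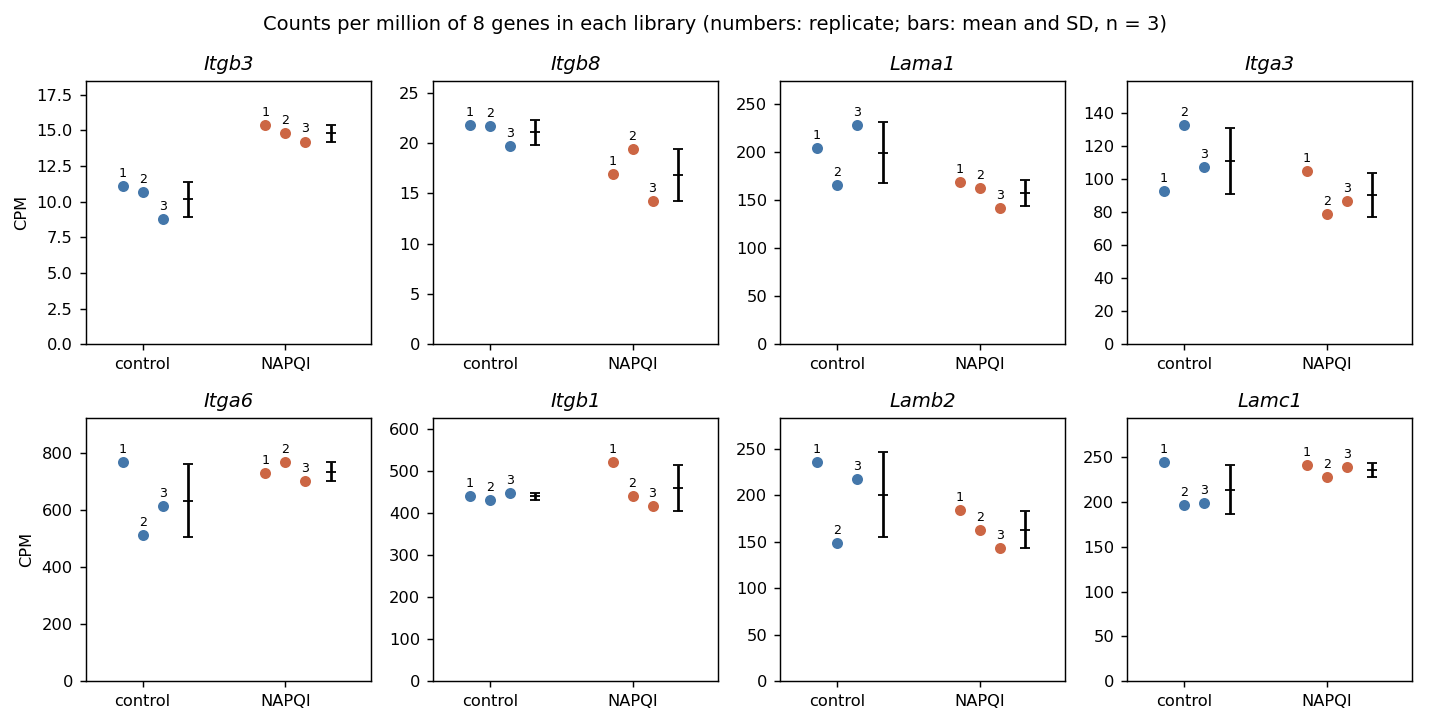
CPM of 8 genes in each control (blue) and NAPQI (orange) library, with the replicate number above each point and the group mean and SD (n = 3) as black bars. Itgb3 and Itgb8 are the genes whose groups do not overlap in CPM, and the spread of Itga6 and Lamb2 over the controls is as wide as their range with NAPQI or wider.

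Of the laminin chains, Lama1 had the smallest p. It stood at 205, 166 and 229 CPM in control replicates 1, 2 and 3 and at 169, 162 and 142 CPM in NAPQI replicates 1, 2 and 3. Control replicate 2 lay between NAPQI replicates 1 and 2 and the other controls lay above all NAPQI libraries. The log2 difference was -0.34 ± 0.12 (95% interval -0.60 to -0.083, adjusted p by edgeR of 0.417). It was -0.45 without control replicate 2 (edgeR: adjusted p of 0.0957) and -0.23 without control replicate 3 (edgeR: adjusted p of 0.9997). Lama1 (ENSMUSG00000032796) spans 68004254 to 68129642 of chromosome 17 (plus strand).

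The main beta chains were lower in mean and the main gamma chain higher. Lamb1 stood at 383, 281 and 393 CPM in control replicates 1, 2 and 3 and at 349, 319 and 274 CPM in NAPQI replicates 1, 2 and 3, with overlapping groups and a log2 difference of -0.17 ± 0.13 (edgeR: adjusted p of 0.706). The difference of Lamb1 was -0.30 without control replicate 2, and -0.093, -0.080 and -0.072 without control replicate 1, control replicate 3 and NAPQI replicate 3. Lamb2, known from basement membranes of kidney and neuromuscular junctions, stood at 236, 149 and 217 CPM in the controls and at 184, 163 and 143 CPM with NAPQI, also with overlap (log2 difference -0.30 ± 0.15, edgeR: adjusted p of 0.553). The difference of Lamb2 was -0.16 without control replicate 1 and -0.47 without control replicate 2 (edgeR: adjusted p of 0.0959). Lamc1, the gamma chain of most laminins, stood at 245, 196 and 199 CPM in the controls and at 241, 228 and 239 CPM with NAPQI. Control replicate 1 was above all NAPQI libraries and the other controls were below them (log2 difference 0.14 ± 0.10, edgeR: adjusted p of 0.671). It was 0.26 without control replicate 1 and 0.092 without control replicate 2. Lamb1 (ENSMUSG00000002900) spans 31315233 to 31379643 of chromosome 12 (plus strand), Lamb2 (ENSMUSG00000052911) spans 108356935 to 108367729 of chromosome 9 (plus strand) and Lamc1 (ENSMUSG00000026478) spans 153094668 to 153208532 of chromosome 1 (minus strand).

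The other laminin chains had log2 differences of -0.31 to 0.23. Lama3 and Lamb3, both chains of the laminin of epithelial anchoring, were at -0.31 and -0.16, and Itgb4, the beta chain of its integrin receptor, was at -0.23. Lama2 and Lama4 were at 0.071 and -0.12, and Lamc3, on 13 to 33 counts per library, at 0.23. Laminin genes are long, with a median given length of 9681 bases against 4436 for all genes tested. Control replicate 3 was also unlike the others on length: across genes, the Spearman correlation was -0.30 between length and its deviation from the mean of all libraries, and -0.099 to 0.167 in the others. With each library's trend on length removed the median of the laminin chains was -0.22 and 0 genes were called.

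Counts of some members may have gained or lost reads through a neighbour, since the span of 8 of the 37 overlaps another gene. The sources used here do not say whether counting used the strand or how reads in an overlap were treated. This weighs most for Itgae, with 32.3 counts on average against 231 for Haspin within it, and for Lamb3, with 53.0 against 243 for G0s2.

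The next question was how genes that act with integrins and laminins stood. The list of 24 other integrin ligands was chosen with earlier results of these data known. Of its 23 tested genes 1 was called lower and 0 higher. Over all 14736 genes tested 1 (0.00679%) was called lower, and it is the same gene, so that share is no separate background. This gene was Ccn1, a secreted matrix protein that binds integrins. It stood at 145, 374 and 313 CPM in control replicates 1, 2 and 3 and at 87.5, 107 and 69.4 CPM in NAPQI replicates 1, 2 and 3. Every NAPQI library was below every control (log2 difference -1.66 ± 0.27, edgeR: adjusted p of 0.048), and by edgeR the call was lost without control replicate 3 (adjusted p of 0.397), NAPQI replicate 1 (0.284) or NAPQI replicate 3 (0.218). It was also lost by limma-voom (0.0687). The median of the list was -0.19, with 19 of 23 below 0 and 7 with an unadjusted p under 0.05, all lower, where 5.03% of all genes tested are lower by that measure. The 7 include the collagen chains Col1a1 and Col3a1, at -0.34 ± 0.14 and -0.37 ± 0.12 (edgeR: adjusted p of 0.501 and 0.403), named after their values were seen. Stromal markers summed to 645 to 818 CPM in controls and 587 to 745 CPM with NAPQI. The median of their 7 log2 differences was -0.030, against -0.011 for all genes tested, with 0 called. Of the 7, 6 were below 0 and 3 were lower at an unadjusted p under 0.05, where 52.6% and 5.03% of all genes tested are. The part of stromal cells in the collagen levels was not tested.

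In the other 4 lists 0 genes passed, whether with DESeq2, limma-voom, the exact test or the quasi-likelihood test, and with the last of these 11 of 84 (13.1%) had an unadjusted p under 0.05, against 9.24% of all genes tested. Among 32 tested integrin adaptors and proteins of focal adhesions, 11 were above 0 and 21 below, with a median of -0.055. The lowest p were those of Zyx, an adaptor of mature adhesions, at -0.31 ± 0.094, and of Tns2, a tensin, at -0.28 ± 0.094 (edgeR: adjusted p of 0.347 and 0.412). For both, all NAPQI libraries lay below all controls. The NAPQI libraries did not overlap the controls for 9 of the 32, higher for 2 and lower for 7, where 7.26% and 7.13% of all genes tested do so.

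Among 27 other components of basement membranes, 9 were above 0 and 18 below, with a median of -0.11. Fbln1, which encodes the matrix glycoprotein fibulin, was at -0.55 ± 0.17 and Col4a4, a chain of type IV collagen, at -0.56 ± 0.21 (edgeR: adjusted p of 0.372 and 0.434). Fbln1 was called lower without control replicate 2 (edgeR: adjusted p of 0.0143, log2 fold change -0.76). With any other library left out it was not called (edgeR: adjusted p of 0.366 to 0.9997). Its log2 fold change was -0.40 without control replicate 3. Among 15 other laminin receptors and the enzymes that glycosylate dystroglycan the median was -0.026. Sdc4, a syndecan of focal adhesions, was at -0.25 ± 0.11 and Sgcb, a sarcoglycan, at -0.25 ± 0.13 (edgeR: adjusted p of 0.526 and 0.553).

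Among 10 membrane proteins that associate with integrins the median was -0.066. Cav1, the coat protein of caveolae, stood at 200, 242 and 162 CPM in control replicates 1, 2 and 3 and at 288, 258 and 290 CPM in NAPQI replicates 1, 2 and 3. All NAPQI libraries were above all controls (log2 difference 0.47 ± 0.13, edgeR: adjusted p of 0.306), and without control replicate 2 it was called higher (edgeR: adjusted p of 0.0413). With any other library left out Cav1 was not called (edgeR: adjusted p of 0.249 to 0.9997). Its log2 difference was 0.33 without control replicate 3. Tspan11, a tetraspanin, was at -1.17 ± 0.42 (edgeR: adjusted p of 0.422), from 1.86 ± 0.542 to 0.814 ± 0.159 CPM.

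**Figure D5:**
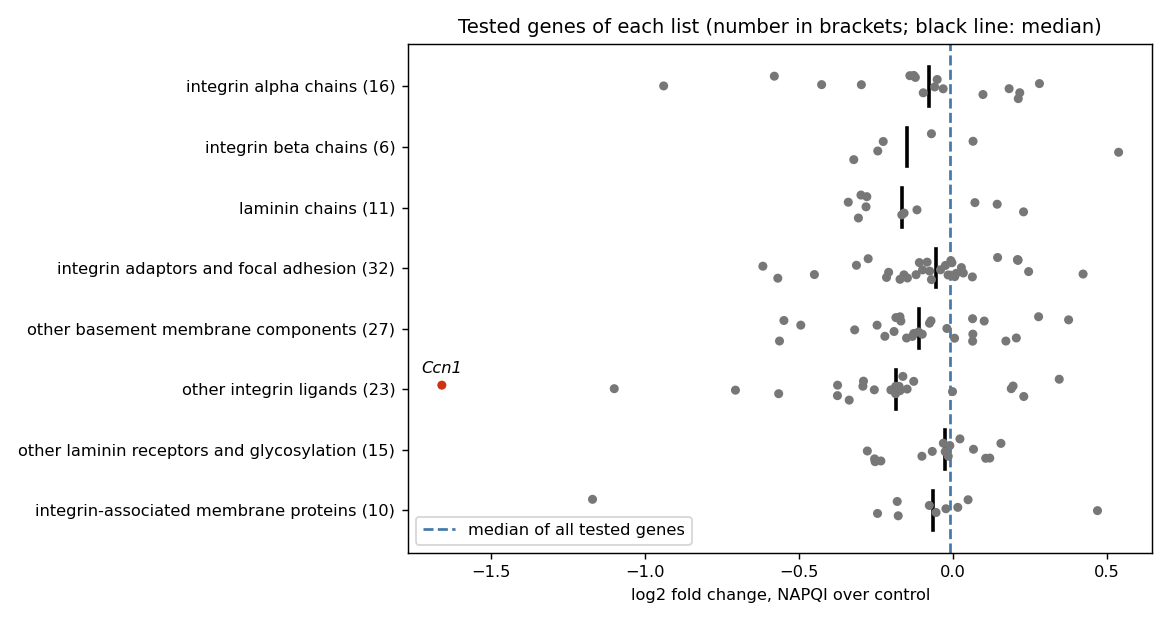
Log2 fold change of NAPQI over control (horizontal axis) for each tested gene of the integrin, laminin and 5 other lists, with the list's median as a black line and the median of all genes tested, -0.011, as a dashed line. Ccn1, in red, is the gene with an adjusted p under 0.05, and the medians of all 8 lists lie between -0.19 and -0.026.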

How the data were processed

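RNA from 3 control and 3 NAPQI libraries was compared, grouped by sample titles. The authors deposited counts of reads for each gene, unscaled, per the file headers, and FPKM, which were checked to equal the count per kilobase of the given length and per 1e+06 counted reads. The submitters' processing notes name FastQC 0.11.8, HISAT2 2.0.5, HTSeq 0.9.1 and GRCm39. The authors' deposited comparison holds mean normalised counts (signal), their fold (ratio), its log2 and p-values, and its column and file names point to DESeq. Each table had 1 empty line, not analysed here.

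The counts were fitted with edgeR 4.0.16 (R 4.3.3): filterByExpr (minimum count 10), TMM, the two-sided quasi-likelihood F-test and Benjamini-Hochberg adjustment over all genes tested, with a threshold of 0.05. The test was tested on simulated data. The changes planted there were larger than most differences of the integrin and laminin genes. How well differences of that smaller size are found was not tested. Alternatives were other scalings, filters and thresholds, DESeq2 1.42.0, limma-voom (limma 3.58.1), the exact test of edgeR, the replicate block, removal of each library's length trend (lowess, span 0.3) and each library left out. Per-library values are given for members with an unadjusted p under 0.05 or no overlap of groups and for the 3 most abundant of each class. Lama5 and Itgb2 were added after their values were seen. Of each other list, the genes named are those that passed or the 2 with the smallest p. Col1a1, Col3a1 and the marker Myh11 were named as well, after their values were seen. Values of some genes are not reported here, while counts and medians over lists include them. Members and lists were chosen with earlier results of these data known. Depth was 13879347 to 17258609 counts per library. Figures used Python 3.11.15 and matplotlib 3.10.9.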

Additional observations from a re-analysis of the deposited data

How the results depend on the processing

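The count of integrin and laminin genes called was 0 in the main analysis and under all 18 alternatives. The median log2 fold change of the alpha chains was -0.11 to -0.046 under the settings that kept all libraries, that of the beta chains -0.15 to -0.074 and that of the laminin chains -0.22 to -0.14. With each library left out in turn the medians were -0.17 to -0.0051, -0.21 to 0.015 and -0.25 to -0.093, and the beta median changed sign without control replicate 1. Of the 11 tested genes chosen for values per library by the stated rule, which leaves out Lama5 and Itgb2, 9 kept the direction of their log2 fold change under 17 of 17 alternatives. Itgb1 was between -0.027 (without NAPQI replicate 1) and 0.14 with a library left out, and Itgb5 between -0.19 and 0.050 (without NAPQI replicate 3). The lowest adjusted p of these 11 under any alternative were those of Lama1 (0.0957) and Lamb2 (0.0959), both by edgeR without control replicate 2. Next was Itgb3 (0.165 by the exact test of edgeR). In the main analysis the edgeR adjusted p of these 3 genes were 0.417, 0.553 and 0.357. With the replicate block 0 integrin and laminin genes were called, and Ccn1 was not (edgeR adjusted p = 0.105); with the block and the length trend removed the laminin median was -0.21. Same-numbered libraries had correlations of deviations from the group means of 0.061, -0.18 and -0.051, so the numbers gave no sign of pairing. The count over all genes was 12 in the main analysis, 48 without a low-count filter, 75 by DESeq2, 115 by the exact test, 1 by limma-voom and with the block, 2 with the block and the length trend removed, and 1 to 58 with a library left out. Depth limits the 4 untested genes and those of few counts, such as Itga4 and Lamc3.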

Other observations

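The ratio of summed laminin alpha to gamma FPKM, chosen after the values were seen and given with no test, was 1.09, 1.15 and 1.46 in control replicates 1, 2 and 3 and 0.985, 0.922 and 0.858 in NAPQI replicates 1, 2 and 3. The groups did not overlap on it (1.23 ± 0.197 and 0.922 ± 0.0634). With no difference between the groups, even a ratio fixed beforehand would have a probability of 0.1 of not overlapping, and this one was picked. For Lama1 over Lamc1 the ratio was 0.805 ± 0.152 in controls and 0.572 ± 0.0554 with NAPQI, and its control replicate 3 was the highest at 0.980. The groups did not overlap on this ratio either (0.713 to 0.980 and 0.508 to 0.610). It is not a separate result, since Lama1 and Lamc1 hold the largest share of their classes. The ratio of laminin beta to gamma overlapped, at 2.55, 2.07 and 3.01 in the controls and 2.19, 2.06 and 1.71 with NAPQI, and so did that of alpha to beta (0.489 ± 0.0634 and 0.467 ± 0.0313). Itga6 over Itgb1 was 0.640 ± 0.126 in controls and 0.718 ± 0.0842 with NAPQI, with overlap.

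The smooth muscle gene Myh11, a marker on one of the cell type lists, had a control level of 53.9 ± 16.2 CPM and a NAPQI level of 93.4 ± 1.77 CPM (adjusted p of 0.173 by edgeR). DESeq2 called it higher (adjusted p of 0.00146), as did the exact test (adjusted p of 0.00365 by edgeR), and its edgeR adjusted p was 0.0129 with no low-count filter, 0.0124 without control replicate 1, 0.397 without control replicate 3 and 0.403 without NAPQI replicate 1. Of the 8 markers on that list 5 were above 0 and 3 below, with log2 differences of -0.84 to 0.79 and a median of 0.095, and Myh11 was named after its values were seen.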
